A study of Mus musculus with 15 samples.

Results

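The comparison set 3 ATAC-seq libraries of mouse macrophages treated with lipopolysaccharide (LPS) for 4 h against 3 libraries treated for 30 min, 6 of the 15 libraries of the series, chosen by their titles. ATAC-seq cuts accessible DNA with a transposase, so that a peak marks a stretch of open chromatin. The cells were primary bone marrow-derived macrophages of C57BL/6 mice, grown in medium conditioned by L929 cells and on day 7 of differentiation, and both groups received LPS at 10 ng/ml. The remaining libraries were untreated or had LPS for 1 h or 2 h, 3 each, and served here only to follow regions found between 30 min and 4 h. Whether the replicates of a time were separate mice or cultures is not in the labels, and p-values are set against the variation among these libraries, possibly technical only. Peaks that overlapped among the 6 lists formed 92821 merged regions of mouse build mm9, against 104855 from all 15 lists. Since no annotation of that build was used, regions are given by position, without genes, and the cell type was not checked against marker genes.

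Macrophages sense LPS, a component of the outer membrane of Gram-negative bacteria, through the receptor TLR4. The earliest response is carried by factors that are already in the cell, above all NF-kB and AP-1, which act on enhancers kept open by the macrophage factor PU.1. A later response needs newly made proteins and includes type I interferon, which signals back on the cells through STAT factors and switches on antiviral genes. In ATAC-seq of stimulated cells, newly used enhancers appear as new peaks, and very active genes can show accessible DNA over long stretches.

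The lists differed in length more between replicates than between times. At 30 min the 3 libraries held 71246, 76817 and 54168 nuclear peaks, and at 4 h they held 81518, 74191 and 55777. Replicate 3 was the shortest list at both times, and the groups overlapped. The means were 67410 ± 11802 at 30 min and 70495 ± 13262 at 4 h (SD, n = 3 each), and the difference of 3085 peaks did not pass (exact permutation, two-sided p = 0.7). With 3 libraries against 3 this test cannot give a p below 0.1. Without replicate 3 at 30 min or replicate 1 at 4 h the direction turned, with differences of -3536 and -2426 peaks. Depth is unknown because the files give no reads per peak, so intervals from counting could not be set, and an absent peak is one that the caller did not report.

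Open chromatin covered 114.2, 107.9 and 90.4 Mb at 30 min and 122.9, 129.4 and 90.5 Mb at 4 h. Replicates 1 and 2 covered more at 4 h than any 30 min library, while replicate 3 at 4 h covered about as little as replicate 3 at 30 min. The mean was 104.2 ± 12.3 Mb at 30 min and 114.3 ± 20.8 Mb at 4 h (SD, n = 3 each, exact two-sided permutation p = 0.5). After each list had been cut to its 54168 highest-scoring peaks, the means were 91.2 ± 4.85 Mb and 96.7 ± 8.76 Mb (SD, n = 3 each, exact permutation p = 0.5). The median peak was 1379 ± 155 bp wide at 30 min and 1430 ± 114 bp wide at 4 h (SD, n = 3 each, exact permutation p = 0.6), and without replicate 2 at 30 min the difference was -35.0 bp. Without replicate 2 at 4 h the difference in covered length was 2.51 Mb, and without replicate 3 at 4 h it was 22.0 Mb. Of the mean surplus of 10.1 Mb at 4 h, 4.35 Mb lay in regions with a peak in 1, 2, 4 or 5 of the 6 libraries, which covered 21.4 ± 8.74 Mb at 30 min and 25.7 ± 12.9 Mb at 4 h (SD, n = 3 each). A further 3.53 Mb lay in regions with a peak in 6 of 6 libraries. Regions with a peak in all 4 h and no 30 min libraries held 2.65 ± 0.213 Mb at 4 h, and those with the reverse pattern held 0.936 ± 0.0678 Mb at 30 min (SD, n = 3 each).

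**Figure D1:**
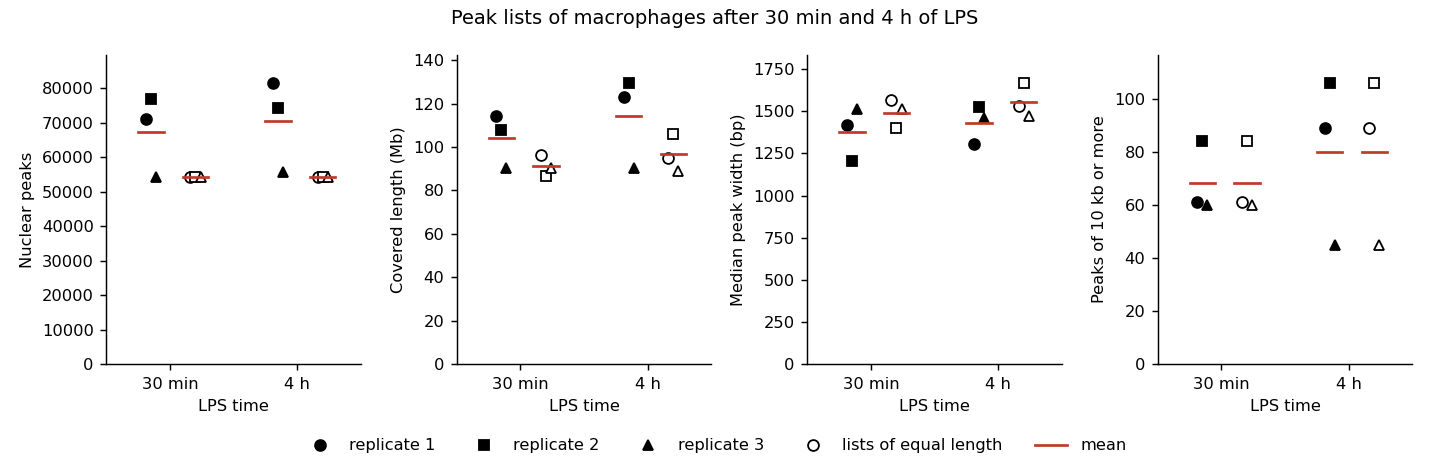
Number of peaks, covered length in Mb, median peak width in bp and number of peaks of 10 kb or more in each library at 30 min and 4 h (filled symbols, full lists; open symbols, lists cut to 54168 peaks; red lines, means of 3 libraries). The groups overlap in all 4 measures, and replicate 3 has the shortest full list at both times.

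Peak sets were nevertheless on average more alike within a time than between the times, though single pairs overlapped. The Jaccard index (shared over total covered bases) was 0.688, 0.637 and 0.605 for the pairs of 30 min libraries. It was 0.710, 0.604 and 0.620 for the pairs of 4 h libraries. Between the times it ran from 0.538 to 0.649 over 9 pairs, and the lowest value joined replicate 3 at 30 min with replicate 1 at 4 h. The mean index was 0.643 within 30 min, 0.645 within 4 h and 0.600 between them. The excess of 0.0437 gave an exact one-sided permutation p = 0.1, the smallest that 3 libraries against 3 allow, and it was 0.0645 with lists of equal length (exact permutation p = 0.1).

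Most regions with a peak in 3 of 3 libraries at 30 min also had one in 3 of 3 at 4 h, 40684 of 47263. These 40684 regions, with a peak in 6 of 6 libraries, were 43.8% of all. Of them, 93.4% also had a peak in 3 of 3 untreated libraries. Between 30 min and 4 h, 1870 regions were gained, meaning that 3 of 3 libraries at 4 h and 0 of 3 at 30 min had a peak, which is 2.01% of the 92821 regions. The reverse, called lost, held for 782 regions or 0.842%. A single region cannot pass a test in this contrast, because the smallest p that Fisher's exact test can reach with 3 libraries a time is 0.1. In a further 4489 regions, 2 of 3 libraries at 4 h and none at 30 min had a peak, and 2457 had the reverse.

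**Figure D2:**
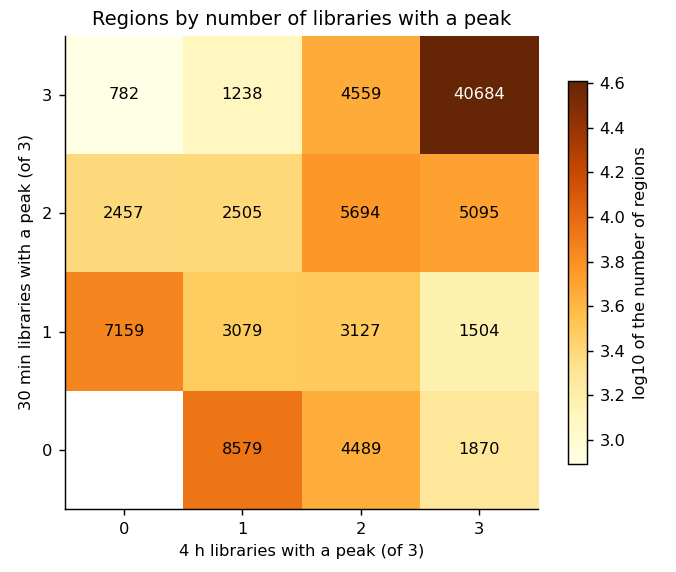
Number of merged regions by the number of 30 min libraries (vertical axis) and 4 h libraries (horizontal axis) with a peak, with colour on a log10 scale. The 1870 gained regions stand at the lower right and the 782 lost regions at the upper left, beside 40684 regions with a peak in all 6 libraries.

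Gains outnumbered losses in the full lists, 70.5% of the changed regions. With lists of equal length, 2158 of 70046 regions (3.08%) were gained and 1243 (1.77%) were lost, so that gains made up 63.5%. Of the 1870 gained regions, 1036 (55.4%) overlapped a region gained at equal length, which is 48.0% of the latter. Of the 782 lost regions, 184 (23.5%) overlapped one lost at equal length, which is 14.8% of the latter. Leaving out a library loosens the rule to 2 libraries against 3, and single libraries moved the counts. Without replicate 3 at 4 h, 5888 regions were gained and 885 lost. Without replicate 3 at 30 min the balance turned, with 1939 gained and 2605 lost. The lost count was 1322 without replicate 1 at 4 h and 1377 without replicate 2 at 4 h. Without replicate 3 of either time, 6021 were gained and 2778 were lost.

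Each peak of a changed region was ranked by the caller's score within its own list. The median peak of a gained region stood at percentile 45.9, 37.3 and 23.2 of the lists of replicates 1, 2 and 3 at 4 h. The median peak of a lost region stood at percentile 21.2, 24.5 and 17.9 of the 30 min lists. The libraries overlapped, since replicate 3 at 4 h lay below replicate 2 at 30 min. Both sets therefore lay mostly in the weaker part of their lists, and a share of the lost regions lay below the limit of the equal-length lists: 57.5% in replicate 1 and 60.4% in replicate 2 at 30 min. For gained regions that share was 30.4% and 31.9% in replicates 1 and 2 at 4 h. Peaks of gained regions were 1277, 1427 and 1233 bp wide at the median in the 3 libraries at 4 h. The medians of those lists were higher (1304, 1526 and 1460 bp), most so in replicate 3. Peaks of lost regions were 1168, 1025 and 1239 bp wide, also below the list medians of 1419, 1208 and 1511 bp at 30 min.

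The other 9 libraries, which had no part in the rule, show when the gained regions appeared. A peak was present in 5.19%, 14.6% and 12.9% of the gained regions in the untreated libraries. At 1 h the shares were 24.5%, 46.0% and 9.79%, and at 2 h they were 80.2%, 78.4% and 65.1%. Each 2 h library thus held more of these regions than each untreated or 1 h library, while the 1 h libraries overlapped the untreated ones. Regions with a peak in 3 of the 6 libraries that did not separate the times, 5632 in all, served as a reference. In these the mean share was 40.1% ± 17.1 in untreated, 44.0% ± 29.1 in 1 h and 61.0% ± 19.3 in 2 h libraries (SD, n = 3 each). Over the 92821 regions the means were 63.4%, 64.7% and 74.2%. In the full lists the gained regions had thus reached that level at 2 h, from far below it. With the 15 lists cut to equal length they had not, with a mean of 40.8% at 2 h against 53.6% over the 92821 regions.

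By 2 h, 1050 of the 1870 gained regions (56.1%) were complete, with peaks in 3 of 3 libraries, and 194 (10.4%) were empty. Of the 92821 regions, 62.5% were complete and 14.9% empty at 2 h, and of the reference regions 29.4% and 11.4%. At 1 h, 96 gained regions (5.13%) were complete and 891 (47.6%) were empty. The 1 h shares were 48.2% and 20.2% of the 92821 regions and 7.48% and 20.1% of the reference regions. Among the gained regions, 327 (17.5%) went from 0 of 3 libraries at 1 h to 3 of 3 at 2 h, against 147 (2.61%) of the reference regions. No untreated library had a peak in 1451 gained regions (77.6%), against 24.9% of the 92821 regions. In 147 gained regions (7.86%) no untreated, 1 h or 2 h library had a peak, which is close to the 7.90% over the 92821 regions. A peak in 3 of 3 untreated libraries and none at 30 min was seen in 33 gained regions (1.76%). Of the 92821 regions, 51.0% had a peak in 3 of 3 untreated libraries. Another 126 gained regions had a peak in 2 untreated libraries and 260 in 1. With the 15 lists shortened to 52447 peaks each, the mean shares of gained regions with a peak were 3.39% untreated, 10.0% at 1 h and 40.8% at 2 h, against 17.6%, 15.8% and 14.7% in the reference regions.

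Untreated libraries had a peak in 41.9%, 71.9% and 70.2% of the lost regions. The mean of 61.3% ± 16.8 (SD, n = 3) was near the 63.4% over the 92821 regions. In the reference regions the same libraries had 29.8%, 59.8% and 30.7%, each below its share of the lost regions (mean 40.1% ± 17.1, SD, n = 3). The shares of lost regions were 60.4%, 61.6% and 28.1% at 1 h and 49.0%, 60.5% and 43.0% at 2 h. These overlapped between the times, and replicate 3 of 1 h, whose list was the shortest of the 15, was lowest. With 15 lists of equal length the means were 40.2% ± 16.9 in untreated, 24.5% ± 4.62 in 1 h and 12.0% ± 4.26 in 2 h libraries (SD, n = 3 each), and the libraries of 1 h and 2 h then no longer overlapped. The reference regions had means of 17.6%, 15.8% and 14.7% in those lists, so the lost regions were near them at 2 h. Over the 92821 regions the means were 52.8%, 52.0% and 53.6%. In those lists the 30 min libraries, whose full lists set the rule, held a peak in 36.2%, 34.7% and 90.7% of the lost regions, so replicate 3, with the shortest full list of the 3, kept most of them and replicates 1 and 2 did not. Of the 782 lost regions, 293 (37.5%) had a peak in 3 of 3 untreated libraries, against 51.0% of the 92821 regions and 13.8% of the reference regions. Of these 293, 39 had already none at 1 h and 2 h, which is 4.99% of the lost regions. That pattern held for 0.490% of the 92821 regions and 1.14% of the reference regions. Another 146 lost regions had no peak in any untreated library and so were open after 30 min but neither before nor at 4 h. They were 18.7% of the lost regions, against 24.9% of the 92821 regions and 32.6% of the reference regions without an untreated peak. Of those 146, 39 were still complete at both 1 h and 2 h. That is 4.99% of the lost regions, against 1.72% of the 92821 regions and 2.81% of the reference regions.

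**Figure D3:**
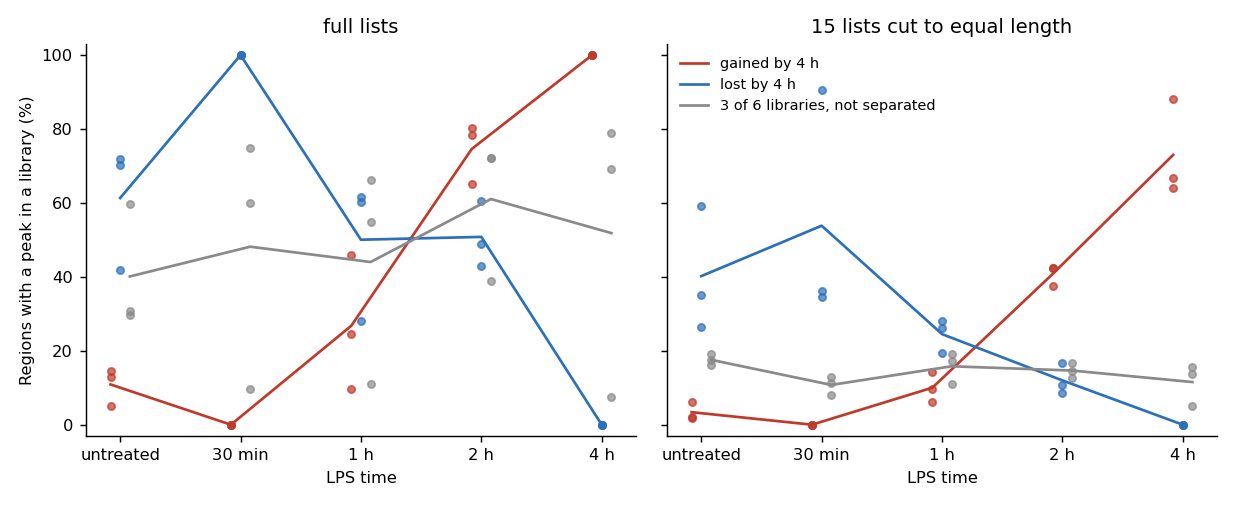
Share of regions with a peak in each library (dots) and mean of 3 libraries (lines) by LPS time, for the 1870 gained, 782 lost and 5632 reference regions, with full lists (left) and 15 lists of equal length (right). The values at 30 min and 4 h follow from the rule in the left panel; at 2 h the gained regions reach 65.1% to 80.2%.

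Gained regions lay near each other. Another gained region stood within 50 kb of 646 of them (34.5%), and a lost region within 50 kb of 56 (2.99%). Of the lost regions, 109 (13.9%) had another lost region within 50 kb and 57 (7.29%) had a gained one. Among the reference regions 12.6% had a gained and 6.07% had a lost region at that distance. Changes of 1 direction therefore shared neighbourhoods more often than the reference regions did, a description for which no test was run.

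The strongest gained regions, ranked by the lowest percentile of their peak among the 3 libraries at 4 h, were complete at 2 h. The region chr16:35820646-35831627 ranked highest, and its peaks covered 10838, 8914 and 8639 bp at 4 h. They stood at percentiles 99.5, 93.5 and 94.0 of the lists. It had a peak in 1 of 3 untreated libraries, in none at 30 min and 1 h, and in 3 of 3 at 2 h. The region chr19:34626636-34629347 was covered over 2488, 2704 and 2414 bp, at percentiles 99.5, 94.7 and 91.7. It had been open in 2 of 3 untreated libraries and was closed in all 6 libraries of 30 min and 1 h, so that it returned at 2 h. Region chr2:24148209-24153464 followed with 4508, 5148 and 3781 bp at percentiles 99.5, 93.6 and 87.7. It had no peak in untreated cells, and 2 of 3 libraries showed it at 1 h before it was complete at 2 h.

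Among the 10 strongest gained regions, 10 were complete at 2 h and 7 were empty in untreated cells. The course differed at 1 h, when 2 were complete, 5 had a peak in 2 of 3 libraries and 3 had none. Already complete at 1 h were the regions chr5:136505126-136507075 and chr7:81535659-81540775. Still without a peak at 1 h was chr4:138996420-138999186, along with the regions of chromosomes 16 and 19 described above. The remaining regions were chr11:78688845-78690732, chr5:121811790-121823107, chr19:11657046-11659678 and chr2:28295710-28297571. Widths differed most at chr5:121811790-121823107, where the peaks covered 11163, 8016 and 5010 bp in replicates 1, 2 and 3.

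The strongest lost regions reached lower ranks, with lowest percentiles of 51.7 to 65.7, against 77.5 to 93.5 for the strongest gained regions. At chr10:87370125-87372673, peaks covered 1428, 1463 and 2549 bp at 30 min, at percentiles 65.7, 69.8 and 67.3. It was complete in untreated cells and at 1 h, and 2 of 3 libraries at 2 h still showed it. At chr4:19782693-19784385, the peaks of 1667, 1479 and 1649 bp at 30 min were gone in all 9 later libraries, after a peak in 3 of 3 untreated ones. The other 8 were complete at both 1 h and 2 h and had disappeared by 4 h. Of these, the region chr12:112978909-112980303 had no peak in untreated libraries, and its peaks covered 1361, 1103 and 1363 bp at 30 min. It was thus open from 30 min to 2 h only.

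Among those 8, the regions chr12:45366086-45368494 and chr1:91772606-91774294 were open in 3 of 3 untreated libraries. The others had a peak in 1 or 2 untreated libraries: chr8:114143219-114144945, chr10:116749566-116751043, chr15:59450694-59452557, chr12:100707822-100709379 and chr7:6097364-6099249. Of the whole set of lost regions, 207 of 782 (26.5%) were complete at 2 h, against 62.5% of the 92821 regions and 29.4% of the reference regions.

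Width showed a further change in regions that were open at both times. In each of the 40684 regions with a peak in 6 of 6 libraries, the bases covered by peaks were compared on a log2 scale with limma, after centring on each library's median, and p-values were adjusted over these regions by Benjamini and Hochberg. At an adjusted p under 0.05, 343 regions (0.843%) were wider at 4 h and 77 (0.189%) were narrower. The median change over the regions tested was 0.00 on the log2 scale. It was 1.05 in the wider regions (2.07-fold) and -0.95 in the narrower ones (0.517-fold). At an unadjusted p under 0.05, limma gave 2664 wider and 1529 narrower regions. The count of wider regions was 134 without replicate 1 at 4 h and 153 without replicate 2 at 4 h, and that of narrower regions was 34 without replicate 1 at 4 h and 48 without replicate 2 at 30 min.

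**Figure D4:**
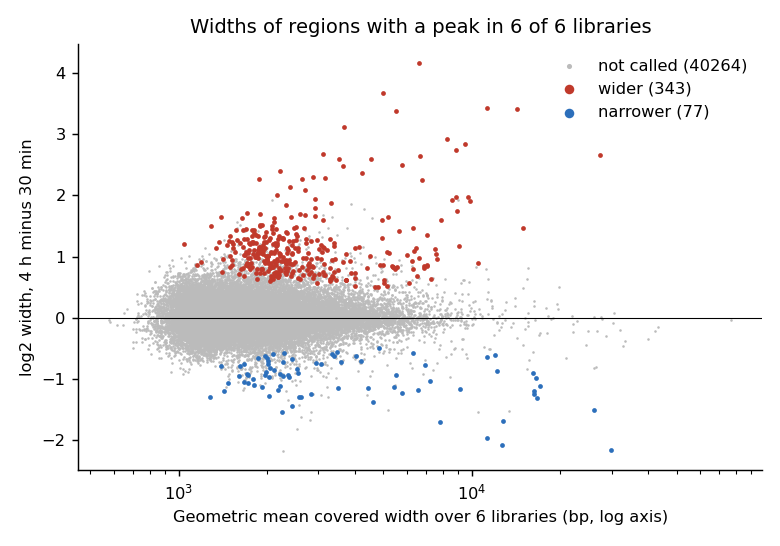
Change in covered width between 30 min and 4 h (log2, vertical axis) against the geometric mean width over the 6 libraries (bp, log axis) for 40684 regions, with the 343 wider regions in red and the 77 narrower ones in blue. The largest change is 4.15 on the log2 scale, and the lowest called one is -2.16.

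Regions that were wider at 4 h were ordinary in width before. Their median covered width was 1646, 1521 and 1629 bp at 30 min, beside 1679, 1548 and 1615 bp over the regions tested. At 4 h it was 3540, 3624 and 3200 bp, beside 1640, 1750 and 1579 bp over the regions tested. In libraries not used for the test, over the regions with a peak there (313 to 327 of 343 untreated, 321 to 339 at 1 h and 343 at 2 h), it was 1717 ± 196 bp untreated, 1935 ± 304 bp at 1 h and 3070 ± 51 bp at 2 h (SD, n = 3 each). The widening was therefore largely in place at 2 h, as were the gained regions in the full lists. With 15 lists of equal length, the mean share of gained regions with a peak was 40.8% at 2 h and 73.0% at 4 h. A gained region stood within 50 kb of 156 of the 343 wider regions (45.5%) and of 14.9% of the regions tested, and a lost region within 50 kb of 6 (1.75%) and 8.04%.

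Narrower regions had been wide at 30 min, with a median of 3721, 3767 and 3677 bp, and measured 1982, 2101 and 1735 bp at 4 h. Over those with a peak in a library (74 to 77 of 77), the median was 2918 ± 230 bp in untreated cells, 2974 ± 204 bp at 1 h and 2799 ± 88 bp at 2 h (SD, n = 3 each). The 9 libraries not used for the test lay between those of 30 min and 4 h, whose order the choice of these regions fixes. A lost region lay within 50 kb of 29 of the 77 (37.7%), and a gained region within 50 kb of 5 (6.49%).

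The largest widening was on chr2:11389822-11420530. Peaks there covered 1669, 1344 and 1659 bp at 30 min and 30357, 29592 and 25238 bp at 4 h. The groups were far apart, and the log2 change was 4.15 ± 0.10 (SE, limma, adjusted p = 3.45e-06). Untreated libraries had 1853, 2009 and 1814 bp, those at 1 h had 2704, 3130 and 1492 bp, and those at 2 h had 9512, 20076 and 22155 bp. The stretch was still in 6 to 9 separate peaks at 2 h and in 3 to 7 at 4 h.

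Region chr19:34713042-34732163 went from 1440, 1084 and 1679 bp at 30 min to 19035, 16552 and 18400 bp at 4 h (log2 change 3.67 ± 0.16, SE, limma, adjusted p = 3.88e-05). The step fell between 1 h, with 1126, 1589 and 1558 bp, and 2 h, with 16153, 15480 and 14881 bp. Region chr16:97754391-97792766 showed the same step, from 3644, 3779 and 2305 bp at 1 h to 37408, 36898 and 36895 bp at 2 h, and stayed at 38376, 37499 and 36699 bp at 4 h. Its log2 change from 30 min to 4 h was 3.43 ± 0.11 (SE, limma, adjusted p = 1.6e-05), from 3778, 3508 and 2943 bp at 30 min.

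A later course was seen on chr11:78732481-78783487. Its peaks covered 7659, 3359 and 3169 bp at 30 min, 15987, 21003 and 14564 bp at 2 h and 49847, 49372 and 42389 bp at 4 h. The 4 h libraries thus lay well above those of 2 h, and the log2 change was 3.40 ± 0.28 (SE, limma, adjusted p = 0.00128). On chr12:27152797-27171614, peaks covered 1494, 1768 and 1832 bp at 30 min and 18503, 17847 and 17677 bp at 4 h (log2 change 3.38 ± 0.12, SE, limma, adjusted p = 1.97e-05). At 1 h that region still measured 1518, 1742 and 1389 bp, and at 2 h it measured 15721, 13478 and 15190 bp. Its step thus fell between 1 h and 2 h, unlike the later course on chr11:78732481-78783487.

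Narrowing was largest on chr5:139228679-139292694. Its peaks covered 62997, 60153 and 63616 bp at 30 min and 13612, 17119 and 12470 bp at 4 h (log2 change -2.16 ± 0.12, SE, limma, adjusted p = 0.000167). Untreated libraries had 22596, 25573 and 14970 bp, so the region was widest at 30 min and 1 h, with 63719, 48763 and 61636 bp at 1 h. It had fallen to 19819, 12298 and 40688 bp by 2 h. Region chr12:40922646-40951272 went from 23030, 26186 and 28117 bp at 30 min to 7812, 5939 and 5219 bp at 4 h (log2 change -2.08 ± 0.16, SE, limma, adjusted p = 0.000991). Untreated libraries had 6611, 6991 and 5469 bp there, so its 4 h width was close to that before LPS.

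On chr2:44935964-44950840 peaks covered 14821, 14022 and 13063 bp at 30 min and 4665, 4511 and 3991 bp at 4 h (log2 change -1.71 ± 0.09, SE, limma, adjusted p = 0.000167). All 3 libraries at 4 h lay below the untreated ones, which had 7237, 7881 and 7968 bp. Region chr2:127955387-127986634 measured 13459, 31248 and 25277 bp at 30 min and 7902, 6640 and 3666 bp at 4 h. Its call was at the limit (log2 change -1.97 ± 0.36, SE, limma, adjusted p = 0.0497) and was lost when any library but replicate 1 at 30 min was left out, at adjusted p up to 0.153. Region chr11:50001536-50028042 measured 21387, 20547 and 26214 bp at 30 min and 7363, 4936 and 10460 bp at 4 h (log2 change -1.68 ± 0.27, SE, limma, adjusted p = 0.028). That call was lost without replicate 1, 2 or 3 at 30 min or replicate 1 at 4 h, at adjusted p up to 0.129.

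**Figure D5:**
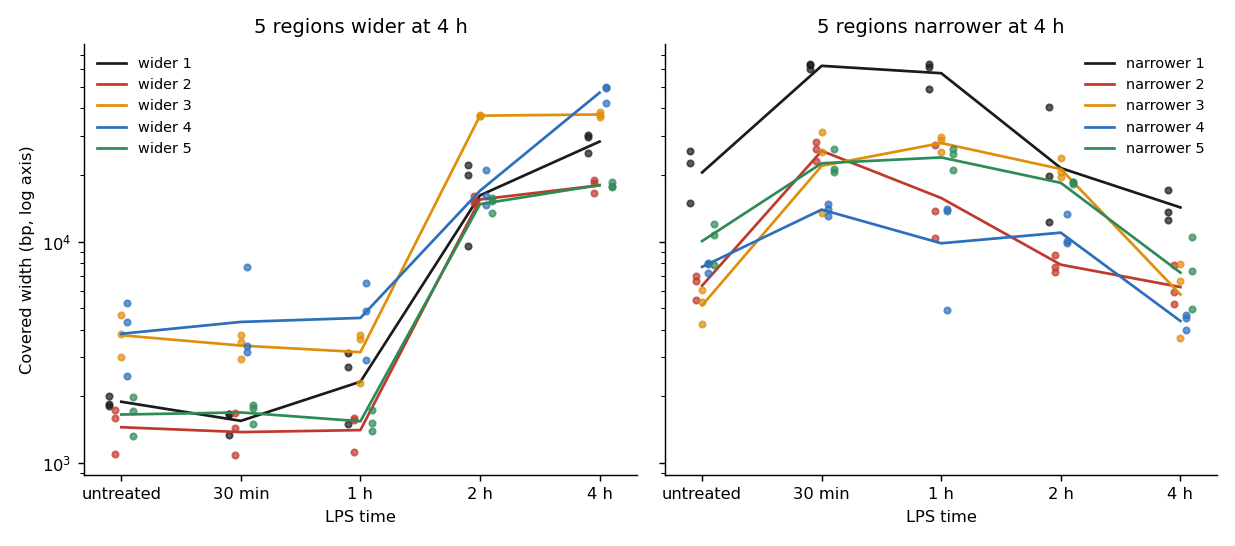
Covered width (bp, log axis) by LPS time in the 5 regions with the largest widening (left) and the 5 with the largest narrowing (right), numbered by size of change, with 1 dot per library and lines through the geometric means of 3. The 5 widened regions stand below 8 kb in each library to 1 h and above 9 kb from 2 h on, and the narrowed ones are wide at 30 min.

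Very wide peaks, of 10 kb or more, numbered 61, 84 and 60 at 30 min and 89, 106 and 45 at 4 h. Replicates 1 and 2 at 4 h exceeded all 30 min libraries and replicate 3 fell below them, so the groups overlapped. The means were 68.3 ± 13.6 and 80.0 ± 31.5 (SD, n = 3 each, exact two-sided permutation p = 0.6), and without replicate 2 at 4 h the direction turned, with a difference of -1.33. Lists of equal length held the same numbers. Peaks of 5 kb or more numbered 482 ± 105 at 30 min and 683 ± 287 at 4 h (SD, n = 3 each, exact permutation p = 0.3).

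Wide peaks also differed in place. Of 188 regions with such a peak in at least 1 of the 6 libraries, 8 had it in 6 of 6. In 13 regions it was present in 3 of 3 libraries at 4 h and in none at 30 min, and in 10 regions the reverse held. Of the 13, none had such a peak in an untreated library, 1 had it in a single library at 1 h, and 7 had it in 3 of 3 at 2 h. Of the 10, 8 had none in untreated libraries, 4 had it in 3 of 3 at 1 h and 2 had it in 3 of 3 at 2 h. In the 13 regions, chosen for having no wide peak at 30 min, wide peaks thus mostly appeared at 2 h, though 2 of the 13 had none then. A 2 h share over the 188 regions is not given here. Wide peaks of the 10 regions were mostly absent before LPS, but so were those of the 188 regions, of which 32 had one in an untreated library.

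Largest among the 4 h cases was chr11:119259016-119330364. Its widest peak measured 1919, 1573 and 1784 bp at 30 min and 71300, 71286 and 66902 bp at 4 h. In untreated and 1 h libraries it stayed at 1564 to 2762 bp. Shorter peaks were there from the start, and together they covered 12288, 9865 and 10462 bp at 30 min. The neighbouring region chr11:119330491-119358168 starts 126 bp further on, and its widest peak grew from 2105, 3162 and 1981 bp at 30 min to 27678, 25269 and 24330 bp at 4 h. At 2 h a single peak of 93705 bp in replicate 1 and of 96148 bp in replicate 2 spanned both. A pair of regions on chromosome 12 lay 10444 bp apart. The widest peak of chr12:27122328-27142352 grew from 1672, 1524 and 1606 bp to 20025, 18925 and 19059 bp, and the other, chr12:27152797-27171614, is described above.

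Ranked by the narrowest of the 3 widest peaks at 30 min, chr11:16864644-16909838 came first among the 30 min cases. Its widest peak measured 38534, 44541 and 42976 bp at 30 min and 8872, 8624 and 8127 bp at 4 h. Untreated libraries had 2762, 5078 and 3160 bp, and it was still 27666, 42926 and 16149 bp wide at 2 h. Here the wide peak gave way to several shorter ones, which together covered 38037, 37950 and 31772 bp at 4 h, beside 44136, 44541 and 45116 bp at 30 min. Region chr5:99640033-99684794 followed, with 35271, 42713 and 44523 bp at 30 min and 2521, 4106 and 5043 bp at 4 h. Its summed peaks covered 43436, 42713 and 44523 bp at 30 min and 13563, 19200 and 14952 bp at 4 h, so most of its covered length was gone. The widest peak was back below 7 kb in 3 of 3 libraries at 2 h. On chr16:55802714-55826710 the widest peak went from 18422, 21304 and 23076 bp at 30 min to 6129, 5405 and 4030 bp at 4 h, and untreated libraries had 2483, 3129 and 2846 bp. The region chr18:61262277-61301933 differed in that it was wide before LPS in 2 of 3 untreated libraries, at 18735 and 11791 bp. It reached 21113, 33360 and 18267 bp at 30 min, was below 8 kb in all 3 libraries at 1 h and measured 5551, 7131 and 3040 bp at 4 h. Its summed peaks covered 35530, 34661 and 34230 bp at 30 min and 23714, 22972 and 15552 bp at 4 h.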

How the data were processed

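ATAC-seq peak lists of 15 libraries were used, 6 of them for the comparison. Per the submitters' processing notes, Bowtie 1.1.2, MACS 1.4 and build mm9 were used. Settings, duplicates, read shift, control and blacklist are items not given in the sources used here. Each library has 1 deposited list with the authors' score per peak, from 50 to 3233.06 and tied at 3100 in 4.94% of peaks of the 6 lists. The scale of the score is not stated, and it served to rank and filter within a list. Mitochondrial peaks, 2 per list, were dropped. No 2 of the 6 lists shared more than 9 identical intervals.

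Members, lists and tests were chosen with earlier results of these data known. Peaks overlapping by 1 bp or more were merged. Positions count from 1. Numbers and lengths were compared with exact permutation tests, widths with limma 3.58.1 (eBayes with trend) in R 4.3.3, tested on simulated data. Regions are named by a rule: the 10 with the highest lowest score percentile per direction, the 5 widest of 10 kb or more that separate the times per direction, and the 5 largest called width changes per direction. Others named, including 1 Mb windows, were chosen after their values were seen. Gene lists, motifs and markers need an annotation of build mm9 and were not analysed here.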

Additional observations from a re-analysis of the deposited data

How the results depend on the processing

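Differences at 4 h minus 30 min with single libraries left out ran from -3536 to 10444 peaks, 2.51 to 22.0 Mb, -35.0 to 116.5 bp of median width and -1.33 to 29.2 peaks of 10 kb or more, so direction was kept for covered length alone. Gained regions then numbered 1939 to 5888 and lost regions 885 to 2605, wider regions 134 to 380 and narrower regions 34 to 81. Without replicate 3 of both times, added after seeing the data, 6021 were gained and 2778 lost. Equal list length gave 1243 lost regions, bins of 500 bp gave 10789 gained and 3817 lost bins, and a rule of 2 of 3 libraries gave 6359 and 3239. With 15 lists of equal length, also added later, gained regions had a peak in 3.39% untreated and 40.8% at 2 h, and lost regions in 40.2% untreated, 24.5% at 1 h and 12.0% at 2 h; the cause was not tested. A score of 100, coverage of 50% and a merging gap of 200 bp kept both counts within 1.5 times. Quantile normalization called 108 narrower regions and no centring 57, with no called region changing direction. Same-numbered libraries deviated together at correlations of 0.0704, 0.0868 and 0.204 for presence and 0.0561, 0.0270 and 0.224 for width, not all above 0.1, so numbers were not taken as pairs; each library correlated best with its own number for presence and not for width. With a replicate block limma called 374 wider and 91 narrower regions, with adjusted p = 0.0513 for chr2:127955387-127986634, and exchanging labels within replicate numbers gave p = 0.75, 0.25, 1 and 0.5 for peaks, covered length, median width and wide peaks (exact permutation, smallest possible 0.25). Depth is unknown, so weak regions are the least certain.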

Other observations

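The number of gained regions differed between windows of the genome, as did the number of merged regions. Over the 92821 regions, 2.01% were gained and 0.842% were lost. Of 2179 windows of 1 Mb that held a region, 935 had a gained one and 110 had 4 or more, while 575 had a lost one and 11 had 4 or more. The densest window lay on chr7:81000001-82000000, where 18 of 74 regions were gained and 0 were lost. Next came chr5:121000001-122000000, with 12 of 104, and chr10:20000001-21000000, with 11 of 85. For lost regions the densest windows, on chr14:34000001-35000000, chr14:26000001-27000000 and chr10:87000001-88000000, held 5 each. Gains made up between 58.4% of the changed regions on chromosome 9 and 80.5% on chromosome 6. These windows and chromosomes were picked after their values were seen, and no test was run.

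The widest merged region, of 78000 bp, was chr11:3022480-3100479. It had a peak of 10 kb or more in 3 of 3 libraries of each of the 5 groups, from 29377 bp in an untreated library to 75386 bp at 30 min. Its widest peak measured 51190, 50970 and 75386 bp at 30 min and 31156, 73482 and 73856 bp at 4 h, so the groups overlapped.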
